A study of Mus musculus with 6 samples.

Results

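The 30 genes described here are 15 genes of glucose uptake, glycolysis and lactate export and 15 genes of the response to low oxygen, and all 30 were found by symbol among the 32285 genes measured in pancreatic tumours of mice. The glycolysis members are the glucose transporter Slc2a1, the lactate exporter Slc16a3 and the enzymes Hk1, Hk2, Gpi1, Pfkl, Pfkp, Aldoa, Tpi1, Gapdh, Pgk1, Pgam1, Eno1, Pkm and Ldha. The hypoxia members are Pfkfb3, Pfkfb4, Pdk1, Egln1, Egln3, Car9, Bnip3, Ndrg1, Adm, P4ha1, P4ha2, Ankrd37, Kdm3a, Mxi1 and Higd1a.

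Glycolysis splits glucose into pyruvate in the cytosol, and lactate dehydrogenase with a lactate exporter lets it run without oxygen. When oxygen falls, the prolyl hydroxylases encoded by the Egln genes no longer mark hypoxia-inducible factor (HIF) for destruction, and the stabilised factor raises transcription of many glycolytic enzymes and of its own hydroxylases. Pancreatic ductal tumours have a dense, poorly perfused stroma, and the same genes also respond to growth signals and to immune activation.

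The study asked what a short block of Hedgehog signalling does to the cells of such tumours. IPI-926 inhibits Smoothened, the membrane protein through which Hedgehog ligands act on stromal cells. All 6 mice carried KrasLSL.G12D/+, P53LSL.R172H/+ and Pdx1-Cre (the KPC model), in which Cre under the Pdx1 promoter switches on both mutant alleles in the pancreatic epithelial lineage rather than in stromal or immune cells. Of these, 3 mice received IPI-926 by daily oral gavage at 40 mg/kg for 2 days, and the other 3 received the hydroxypropyl-beta-cyclodextrin carrier (HPBCD, called vehicle here) in the same way. Tumours were taken 2 hours after the last dose, dissociated with enzymes, cleared of red cells and loaded as single cells for 3′ sequencing, with 1 library per mouse. The mice's ages are not given in the labels used here.

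The libraries held 100810942 to 174929328 UMIs (counts of unique molecules), 8114 to 17276 cell barcodes, and 6184 to 14156 cells after filtering and removal of predicted doublets, at a median of 2550 to 7434.5 UMIs per cell. Pairs of libraries shared 14 to 59 barcodes. Cells were clustered without the 30 members and the related pathway genes, and 39689 of 49797 cells fell into 12 classes named from marker genes, with 10108 cells in 12 clusters left unnamed. The class names were rebuilt here and are written as "-like" once and without it afterwards: fibroblast-like, mesothelial-like, perivascular-like, endothelial-like, ductal-like, acinar-like, macrophage-like (with monocytes), neutrophil-like, dendritic-like, T/NK-like, B-like and plasma-like. IPI-926 replicate 3 stood apart: 4233 of its cells were fibroblasts against 54 to 746 in the other libraries, and all but 48 of them lay in clusters drawn over 90% from that library, the larger ones led by Crabp1 at medians of 1541 and 43376.5 UMIs per cell. For the members, the main results that rest on those clusters are given with and without them.

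Members varied in how many matches to the core of the HIF binding motif lay before their start sites, and the windows of the members that the comparisons turn on are shown here. RefSeq (GRCm38.p6) gave a start site for 29 of the 30 members, with Ndrg1 not matched. Each line holds the 250 bases before the start listed first for the gene, 5′ to 3′ on the gene's own strand, in lower case with every ACGTG or GCGTG on either strand (so also CACGT and CACGC) in capitals. Pgk1 (chrX:106186850-106187099, plus strand) was the only member to pass the test in any class. Ldha (chr7:46845554-46845803, plus strand) and Bnip3 (chr7:138909507-138909756, minus strand) had the most matches of the windows shown. With all clusters, Slc16a3 (chr11:120948817-120949066, plus strand) had treated libraries above all vehicle libraries in classes that included fibroblasts, neutrophils and mesothelial cells. In these the same held for 4.35%, 5.05% and 14.1% of all genes. In fibroblasts the Slc16a3 groups did not stay apart without the clusters dominated by a single library. Egln3 (chr12:54203875-54204124, minus strand) had its highest level in neutrophils.
Pgk1: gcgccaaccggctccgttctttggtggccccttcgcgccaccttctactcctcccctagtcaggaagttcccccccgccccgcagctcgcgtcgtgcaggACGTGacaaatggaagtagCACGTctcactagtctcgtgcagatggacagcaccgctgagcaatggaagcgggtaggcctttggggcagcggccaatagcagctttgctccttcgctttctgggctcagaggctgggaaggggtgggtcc
Ldha: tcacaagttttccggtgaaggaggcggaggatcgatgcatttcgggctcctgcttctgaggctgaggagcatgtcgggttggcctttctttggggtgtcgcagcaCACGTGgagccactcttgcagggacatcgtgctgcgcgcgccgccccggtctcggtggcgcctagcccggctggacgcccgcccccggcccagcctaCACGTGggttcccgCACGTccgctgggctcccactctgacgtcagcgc
Bnip3: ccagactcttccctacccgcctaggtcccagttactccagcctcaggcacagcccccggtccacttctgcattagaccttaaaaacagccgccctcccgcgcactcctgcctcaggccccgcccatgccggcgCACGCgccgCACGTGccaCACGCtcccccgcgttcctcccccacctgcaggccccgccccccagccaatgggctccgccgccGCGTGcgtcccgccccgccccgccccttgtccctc
Slc16a3: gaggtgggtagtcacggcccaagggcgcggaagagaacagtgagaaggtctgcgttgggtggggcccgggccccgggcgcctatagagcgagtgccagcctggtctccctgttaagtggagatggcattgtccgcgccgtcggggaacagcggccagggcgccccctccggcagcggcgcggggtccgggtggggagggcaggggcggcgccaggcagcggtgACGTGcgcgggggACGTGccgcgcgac
Egln3: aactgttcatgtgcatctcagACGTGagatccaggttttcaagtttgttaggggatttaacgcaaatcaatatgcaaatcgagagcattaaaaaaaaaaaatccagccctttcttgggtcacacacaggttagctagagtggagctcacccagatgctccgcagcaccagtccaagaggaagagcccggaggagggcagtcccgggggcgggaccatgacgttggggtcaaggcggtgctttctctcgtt
In these windows Pgk1 had matches that began 150 and 131 bases before the start. Ldha had matches at 145, 144, 48, 47 and 34 bases before it, where the neighbouring pairs, as in Bnip3, are the palindrome CACGTG read on both strands. Bnip3 had matches at 117, 108, 107, 99 and 35 bases, Slc16a3 at 27 and 14 bases, and Egln3 at 229 bases before the start. Over windows of 300 bases that also take in the 50 bases after the start, 23 of 29 members (79.3%) held either motif, against 43.8% of the first windows of 27025 genes. The motif ACGTG alone was in 55.2% of member windows against 19.7%, and GCGTG in 58.6% against 32.5%. The member windows were also richer in CpG, with a median of 24 CpG against 7, and both motifs contain CpG. A match describes the letters only.

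Neutrophils and macrophages held the highest levels of most members. Over libraries with at least 20 cells of a class, and in counts scaled to CPM (UMIs of the gene relative to all UMIs of that class), neutrophils had the highest mean level of 12 of the 30 members and macrophages of 8. Fibroblasts led for P4ha1 and P4ha2, subunits of the enzyme that hydroxylates collagen, and for Higd1a, a mitochondrial protein. Endothelial cells led for Hk1, Ndrg1 and Adm, ductal cells for Tpi1 and Car9, dendritic cells for Pfkp and T/NK cells for Pdk1. The 30 genes together took the smallest share of UMIs in plasma cells, 0.103% on average. These levels are a description over the same 6 mice, and each class mean mixes both treatments.

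**Figure D1:**
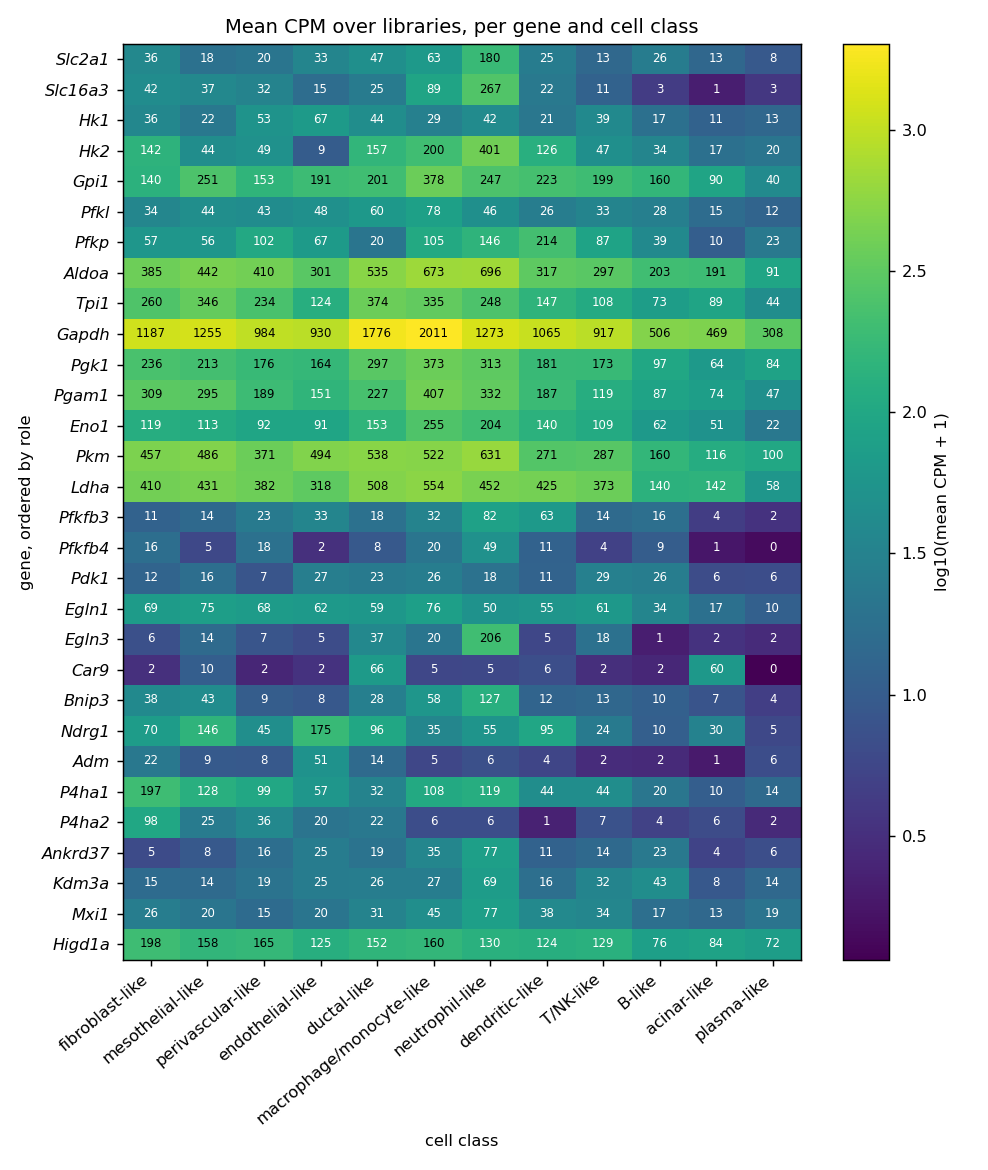
Mean CPM of each member (rows, ordered by role) in the 12 cell classes (columns), printed in each cell and coloured by log10 of the mean CPM plus 1, over libraries with at least 20 cells of the class. Neutrophils hold the highest value for 12 genes, such as Egln3 at 206 CPM, and macrophages for 8.

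Egln3 is the prolyl hydroxylase that HIF itself induces. Its mean level was 206 CPM in neutrophils, where libraries spanned 20.1 to 344 CPM, and ductal cells came next at 36.9 CPM (10.6 to 84.4). In fibroblasts it was at 6.1 CPM (1.01 to 18.6) and in B cells at 1.17 CPM, with 0 in 4 of 6 B cell libraries. The neutrophil and ductal ranges overlapped. Hk2, the inducible hexokinase that commits glucose to glycolysis, had a mean of 401 CPM in neutrophils against 142 in fibroblasts, 126 in dendritic cells and 44.3 in mesothelial cells, and the lowest mean was 9.0 CPM, in endothelial cells. Slc2a1, the main glucose transporter of most cells, had a mean of 180 CPM in neutrophils, with 36.1 in fibroblasts, 17.7 in mesothelial cells and 8.20 in plasma cells.

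Pfkfb3 and Pfkfb4 make the activator of phosphofructokinase and so set glycolytic flux. Pfkfb3 averaged 82.2 CPM in neutrophils, 63.2 in dendritic cells (22.4 to 137), 11.2 in fibroblasts and 2.47 in plasma cells. Pfkfb4 averaged 49.3 CPM in neutrophils (31.7 to 75.5), 15.9 in fibroblasts and 4.79 in mesothelial cells. The neutrophil libraries all lay above every fibroblast library for Pfkfb4, whose highest fibroblast value was 23.2 CPM. Car9, the membrane carbonic anhydrase used as a hypoxia marker, had another pattern, with a mean of 66.2 CPM in ductal cells (21.9 to 123), 9.57 in mesothelial cells and 2.25 in fibroblasts. In acinar cells Car9 was at 0 and 120 CPM in the 2 libraries with enough cells. Adm, the vasoactive peptide adrenomedullin, averaged 50.9 CPM in endothelial cells (15.6 to 108) against 22.0 in fibroblasts and 8.62 in mesothelial cells.

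A single neutrophil cluster had a higher share of its UMIs from the members than any other cluster of the tumours. It held 852 cells, was led by Hcar2, Ankrd33b, Ccl3, Acod1, Cxcl3 and Cd274, and 77.2% of its cells came from IPI-926 replicate 1. The members took 1.48% of its UMIs, and 1.49%, 0.953%, 1.56% and 1.23% in the vehicle 1, vehicle 2, IPI-926 1 and IPI-926 2 parts of it. The larger neutrophil clusters, of 3449 and 3232 cells, were at 0.640% and 0.612%. The clusters were made without the members. Bnip3, which drives removal of mitochondria, was at 606 CPM in the cluster against 99.5 and 97.9 in the larger ones, and was between 563 and 641 CPM in each of the 4 libraries with at least 50 cells in it. Pfkp, the platelet-type phosphofructokinase, was at 677 CPM against 181 and 97.9. Slc16a3 did not follow: it was at 298 CPM against 425 and 136. Among endothelial clusters, Adm was at 108 CPM in the cluster led by Ccl21a and Mmrn1 and at 27.5 CPM in the larger cluster of 1159 cells. Among ductal clusters the member share ran from 0.294% to 0.764%, and the clusters at 0.764% and 0.738% were mostly of IPI-926 libraries whereas the cluster at 0.324% was mostly of vehicle libraries.

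**Figure D2:**
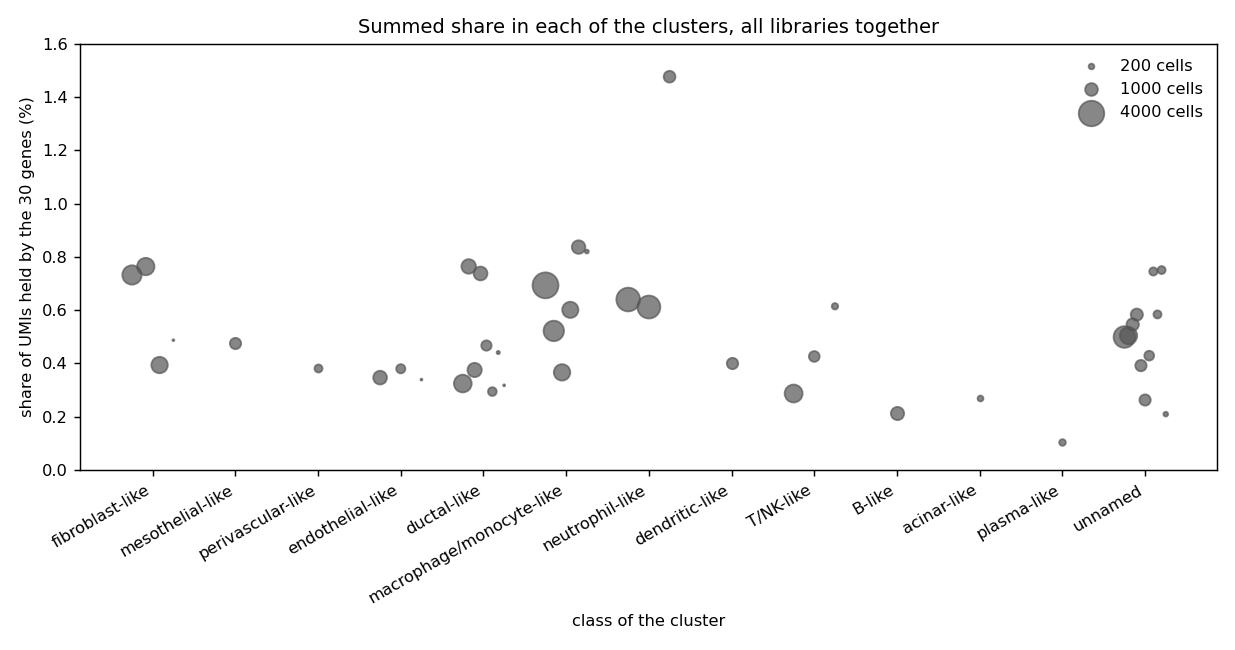
Share of UMIs from the 30 members, in percent, in each cluster with all libraries together (points, sized by the number of cells and grouped by class). The neutrophil cluster of 852 cells lies at 1.48%, above all others, and the plasma cluster is lowest at 0.104%.

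The summed share of the 30 members was higher with IPI-926 in fibroblasts, mesothelial cells and endothelial cells, where every treated library lay above every vehicle library. In fibroblasts it was 0.363%, 0.340% and 0.262% in vehicle replicates 1 to 3 and 0.592%, 0.465% and 0.758% in IPI-926 replicates 1 to 3 (means 0.322 ± 0.053 and 0.605 ± 0.147, SD, n = 3 each). Without the clusters dominated by 1 library, IPI-926 replicate 3 was at 0.324% and the groups overlapped. In mesothelial cells the share was 0.358%, 0.329% and 0.361% against 0.578% and 0.742% (0.349 ± 0.017, n = 3, and 0.660 ± 0.116, n = 2), with IPI-926 replicate 1 left out of the comparison at 12 cells, where it was 0.654%. In endothelial cells the means were 0.330 ± 0.045% and 0.398 ± 0.017% (SD, n = 3 each). There the glycolysis members were at 0.266% and 0.335%, without overlap, whereas the hypoxia members were at 0.0644% and 0.0633% and overlapped. In fibroblasts (with all clusters) and mesothelial cells both sets lay above. Ductal cells were at 0.395%, 0.520% and 0.366% against 0.834%, 0.794% and 0.448%, and overlapped, as did neutrophils, macrophages, perivascular, dendritic, T/NK and B cells. The ductal share of the hypoxia members alone was 0.0456% to 0.0572% against 0.0598% to 0.0883%. Those ductal groups did not overlap, but they did without the clusters dominated by 1 library. Over all cells together the share was 0.384% to 0.530% in vehicle and 0.655% to 0.743% with IPI-926, without overlap. Those groups too overlapped without the clusters dominated by 1 library, and the mix of classes differed between libraries. In summed counts of this kind, more cells with the transcripts and more transcripts per cell cannot be told apart.

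**Figure D3:**
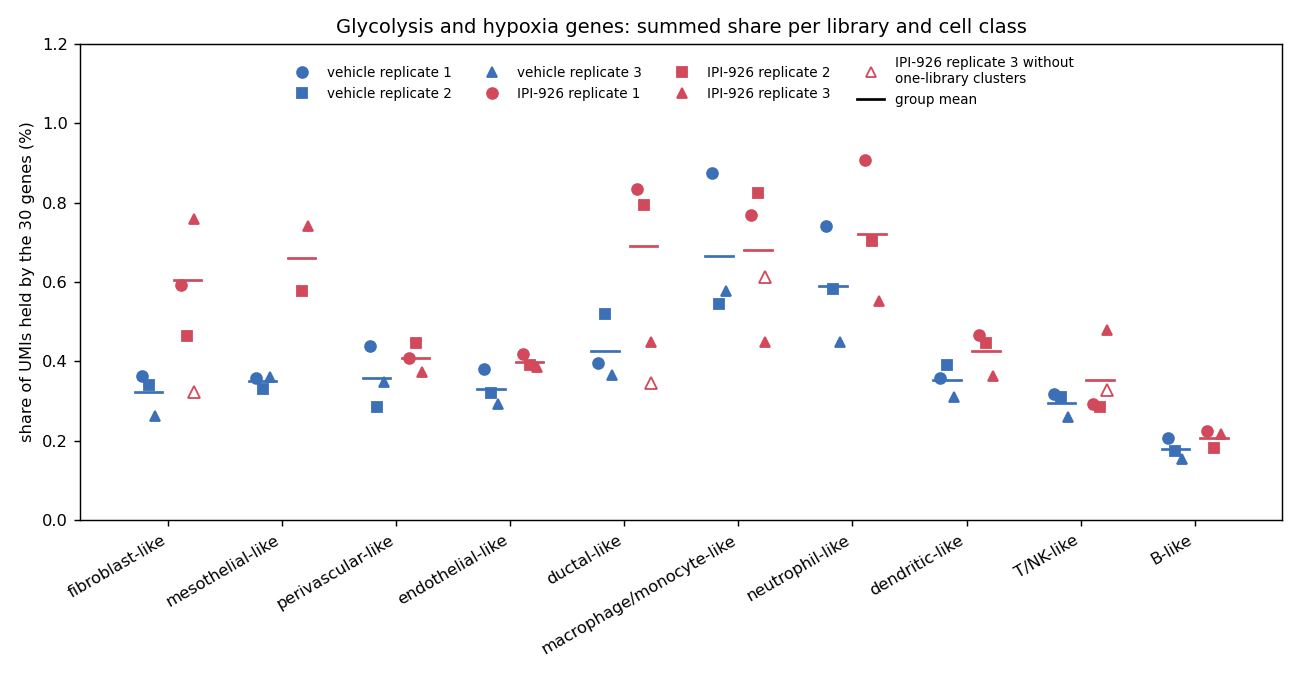
Share of UMIs from the 30 members by cell class, in percent, with a symbol for each library of at least 20 cells, a line at the group mean and an open triangle, where it differs visibly, for IPI-926 replicate 3 without the clusters dominated by 1 library. The filled treated points lie above all vehicle points in fibroblasts, mesothelial cells and endothelial cells and overlap them in ductal cells, neutrophils and macrophages.

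Mesothelial cells, which line the peritoneal surfaces, gave the only member past the test over all genes. They formed a single cluster of 785 cells in which all 10 mesothelial markers were detected, 6 of them among its 10 leading genes. Pgk1, the phosphoglycerate kinase that makes the first ATP of glycolysis (chrX:106187100-106203699), had 98.0, 104 and 107 CPM in vehicle mice and 374 and 407 CPM in IPI-926 replicates 2 and 3. It rose by 1.93 on the log2 scale (SE 0.19; edgeR quasi-likelihood test, adjusted p = 0.033, over 10797 genes), and the treated libraries lay far outside the vehicle spread. CPM in this and the following comparisons is scaled by TMM factors. Over all genes 4 were called, 0.037%, and 1265 had an unadjusted p under 0.05. The call was lost without vehicle replicate 1 (adjusted p = 0.430), vehicle replicate 3 (0.088) or IPI-926 replicate 3 (0.118, where the lone treated library is assumed to vary like the vehicle ones), with the stricter cell filter (0.085) and when the members took part in clustering (0.069). Over all alternatives the log2 difference stayed between 1.70 and 2.00 and the adjusted p ran from 3.05e-13, by DESeq2, to 0.430. The number of genes called by edgeR was 87 without vehicle replicate 2 and 74 without IPI-926 replicate 2. With the 12 cells of IPI-926 replicate 1 added, the adjusted p was 0.016.

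No other member passed in mesothelial cells. Of the 30 members 26 had a positive fold change, against 48.7% of all genes, with a median of 0.90 on the log2 scale against -0.02 over all genes tested. In 19 members both treated libraries lay above all 3 vehicle libraries, against 14.1% of all genes, and in 4 members both lay below, against 14.5%. DESeq2 called 9 of 30 members beside 174 of 10734 genes, and limma-voom 2 of 30 members beside 30 of 10797 genes.

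Among the enzymes of lower glycolysis, Pgam1, the phosphoglycerate mutase, was at 187, 207 and 187 CPM in vehicle and 424 and 493 CPM with IPI-926 (log2 difference 1.25, SE 0.20, adjusted p = 0.103). Ldha, which turns pyruvate into lactate, was at 265, 297 and 295 CPM against 611 and 721 CPM (1.22, SE 0.20, adjusted p = 0.105). The treated values of both lay above the vehicle range by more than its width. Gapdh was at 1058, 746 and 935 CPM against 1534 and 2082 CPM, Pkm at 395, 351 and 356 against 636 and 722, and Aldoa at 340, 306 and 421 against 470 and 700. Of the hexokinases, Hk2 overlapped at 29.2, 56.8 and 15.1 CPM against 97.4 and 26.9. Hk1, the constitutive hexokinase, was lower at 25.9, 20.2 and 26.0 against 16.4 and 20.1.

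The transporters lay on the higher side in treated mesothelial cells. Slc2a1 was at 9.10, 13.9 and 10.9 CPM against 30.2 and 25.9 CPM (log2 difference 1.38, adjusted p = 0.167). Slc16a3, which exports lactate, was at 14.2, 27.8 and 12.8 CPM against 91.3 and 41.8 CPM (1.95, adjusted p = 0.202). Neither passed, and neither had overlapping groups.

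The hypoxia members split in mesothelial cells. Car9 was at 4.36, 6.31 and 5.47 CPM in vehicle and 15.5 and 17.1 CPM with IPI-926 (log2 difference 1.70, adjusted p = 0.134). Ndrg1, a stress-response gene induced by HIF, was at 84.4, 102 and 103 CPM against 198 and 254 CPM, and Higd1a at 104, 121 and 88.9 against 232 and 255 (both adjusted p = 0.110). Adm went the other way, at 11.8, 12.6 and 8.21 CPM against 5.17 and 5.14 CPM (log2 difference -1.06, adjusted p = 0.346), as did Mxi1, a Myc antagonist, at 23.2, 22.7 and 26.0 against 16.4 and 12.2, and the histone demethylase Kdm3a at 18.6, 15.1 and 16.9 against 6.89 and 13.9. Bnip3 and Egln3 overlapped. In the same cells Gli1, the standard readout of Hedgehog signalling, was at 12.5, 10.1 and 7.30 CPM against 2.59 and 0.245 CPM (-3.53, adjusted p = 0.20).

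**Figure D4:**
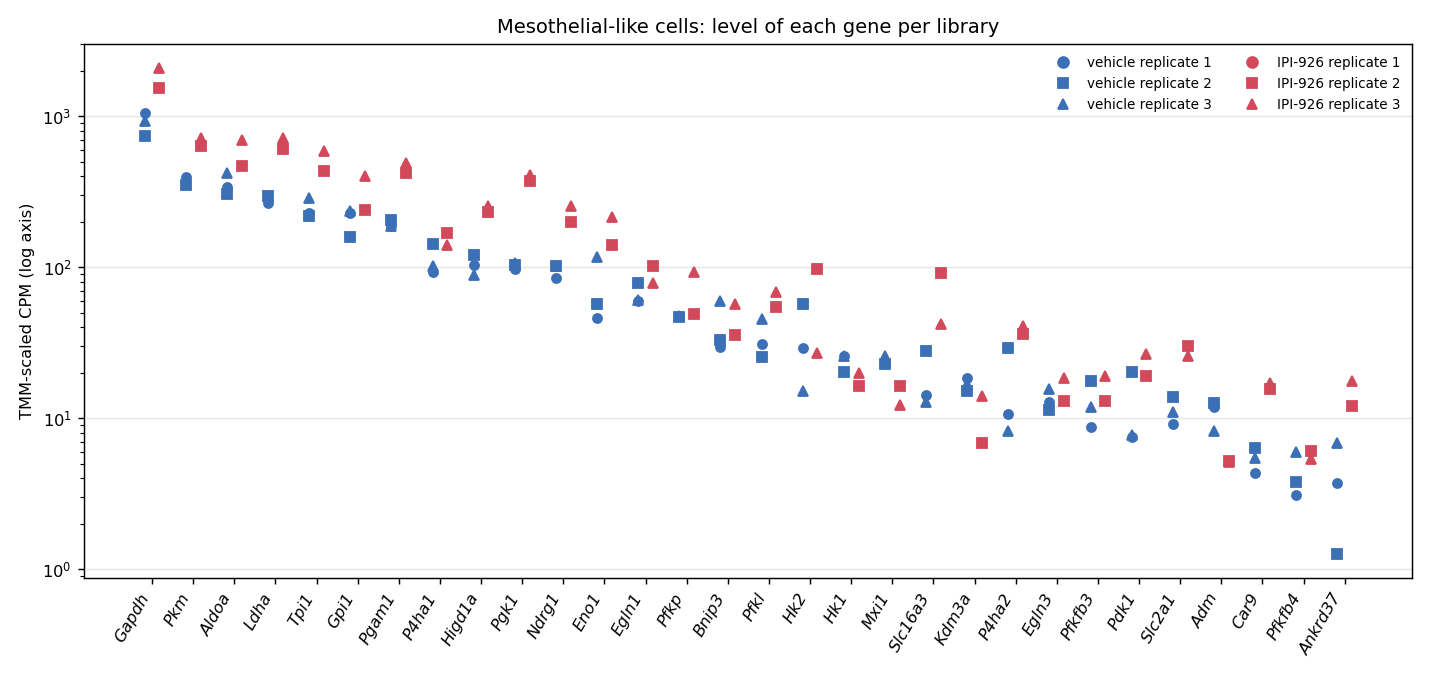
Level of each of the 30 members in mesothelial cells, as TMM-scaled CPM on a log axis, with a symbol for each of 3 vehicle and 2 IPI-926 libraries and genes ordered by their vehicle mean. Pgk1 lies at 374 and 407 CPM with IPI-926, above 98.0 to 107 CPM in vehicle, and Adm, Mxi1, Kdm3a and Hk1 have both treated points below the vehicle ones.

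Levels of other lists in mesothelial cells are given beside these results. The summed level of the ductal markers was 2408, 2550 and 1666 CPM in vehicle and 4466 and 4051 CPM with IPI-926, that of the fibroblast markers 15057, 11393 and 19180 against 11638 and 9251 CPM, and that of the dissociation and heat shock list 12655, 8624 and 11798 against 8816 and 5483 CPM. Of these 3 lists the ductal markers were above in both treated libraries and the others overlapped. T/NK markers were also above, at 6.54, 12.8 and 8.63 against 28.6 and 36.4 CPM, and acinar markers below, at 15.8, 8.96 and 96.8 against 3.27 and 4.32 CPM. The treated libraries held 35 and 171 mesothelial cells, and the vehicle libraries 389, 33 and 145. The part of these in the member differences was not tested.

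In fibroblasts, stromal cells that receive the Hedgehog signal, 29 of 30 members had higher fitted levels with IPI-926, against 51.9% of all genes, and none passed the test. The median log2 difference was 0.85 against 0.02 over the 12183 genes tested. In 17 members the treated libraries lay above all vehicle libraries, against 4.35% of all genes, and in 0 below, against 5.16%. The edgeR test called 0 genes, with 453 at an unadjusted p under 0.05 (16 of them members, all positive, against 1.88% of genes), and every member had an adjusted p of 0.912 or more. DESeq2 called 44 genes and no member, and limma-voom called 0. Without the clusters dominated by 1 library, 27 of 29 members were positive, against 49.2% of genes, with a median of 0.62 against -0.01, and 5 lay above, against 4.02% of genes.

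Several enzymes of lower glycolysis had groups that did not overlap in fibroblasts. Eno1, the enolase, was at 49.6, 71.7 and 57.3 CPM in vehicle and 173, 107 and 265 CPM with IPI-926 (log2 difference 1.61, SE 0.36, unadjusted p = 0.0031). Pgk1 was at 146, 158 and 81.2 CPM against 322, 192 and 542 CPM (1.46, SE 0.44), and Gapdh at 928, 771 and 626 against 1529, 1269 and 2087 (1.07). For each of these every treated library lay above every vehicle library, with IPI-926 replicate 3 highest. Ldha was at 304, 345 and 258 CPM against 472, 423 and 684 CPM, Pkm, the pyruvate kinase, at 321, 316 and 270 against 574, 398 and 899, and Aldoa, the aldolase, at 353, 292 and 231 against 464, 399 and 593. Without the clusters dominated by 1 library, IPI-926 replicate 3 came down to 771 CPM for Gapdh, 154 for Pgk1, 81.1 for Eno1 and 398 for Ldha, and the treated libraries lay above all vehicle libraries for Eno1, Ldha, Pkm, Gpi1 and Pfkfb3.

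Of the entry steps of the pathway in fibroblasts, the groups overlapped for Slc2a1, Hk2 and Pfkp. They did not for Hk1 with all clusters (log2 difference 0.52), nor for Gpi1 without the clusters dominated by 1 library. Slc2a1 was at 37.5, 26.4 and 19.3 CPM against 76.6, 28.1 and 31.2 CPM (log2 difference 0.73) and overlapped. Hk2 was at 141, 198 and 74.2 CPM against 262, 143 and 44.9 CPM (0.12), with treated libraries both above and below the vehicle range. Pfkp was at 66.7, 34.3 and 36.4 CPM against 95.5, 64.9 and 46.1 CPM (0.60). At the exit, Slc16a3 was at 28.3, 28.1 and 9.64 CPM against 92.4, 50.8 and 46.3 CPM (1.53, SE 0.48), without overlap. It was not among the members whose groups stayed apart without the clusters dominated by 1 library.

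Of the hypoxia members in fibroblasts, Bnip3 was at 30.1, 18.1 and 8.19 CPM in vehicle against 70.7, 51.6 and 55.8 CPM (log2 difference 1.68, SE 0.46). Pdk1, a kinase that inhibits pyruvate dehydrogenase, was at 9.27, 10.6 and 4.82 CPM against 20.2, 12.5 and 14.3 CPM (0.94). Without the clusters dominated by 1 library, neither Bnip3 nor Pdk1 was among the members with treated libraries above all vehicle libraries. Ndrg1 was at 66.3, 36.5 and 34.2 against 120, 57.1 and 110 CPM (1.09) and overlapped through IPI-926 replicate 2. Egln3 was at 4.63, 2.68 and 0.964 CPM against 19.2, 6.25 and 3.52 CPM (1.88, SE 0.82), a low level with a wide error. Adm was at 18.5, 24.6 and 5.78 CPM against 17.4, 51.6 and 14.9 (0.71) and P4ha1 at 149, 232 and 93.0 against 268, 240 and 212 (0.60). Kdm3a alone had a negative value, at -0.19. Gli1 in the same cells was at 10.2, 11 and 12 CPM against 0.421, 1.56 and 0.173 CPM (-4.88, adjusted p = 0.912).

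**Figure D5:**
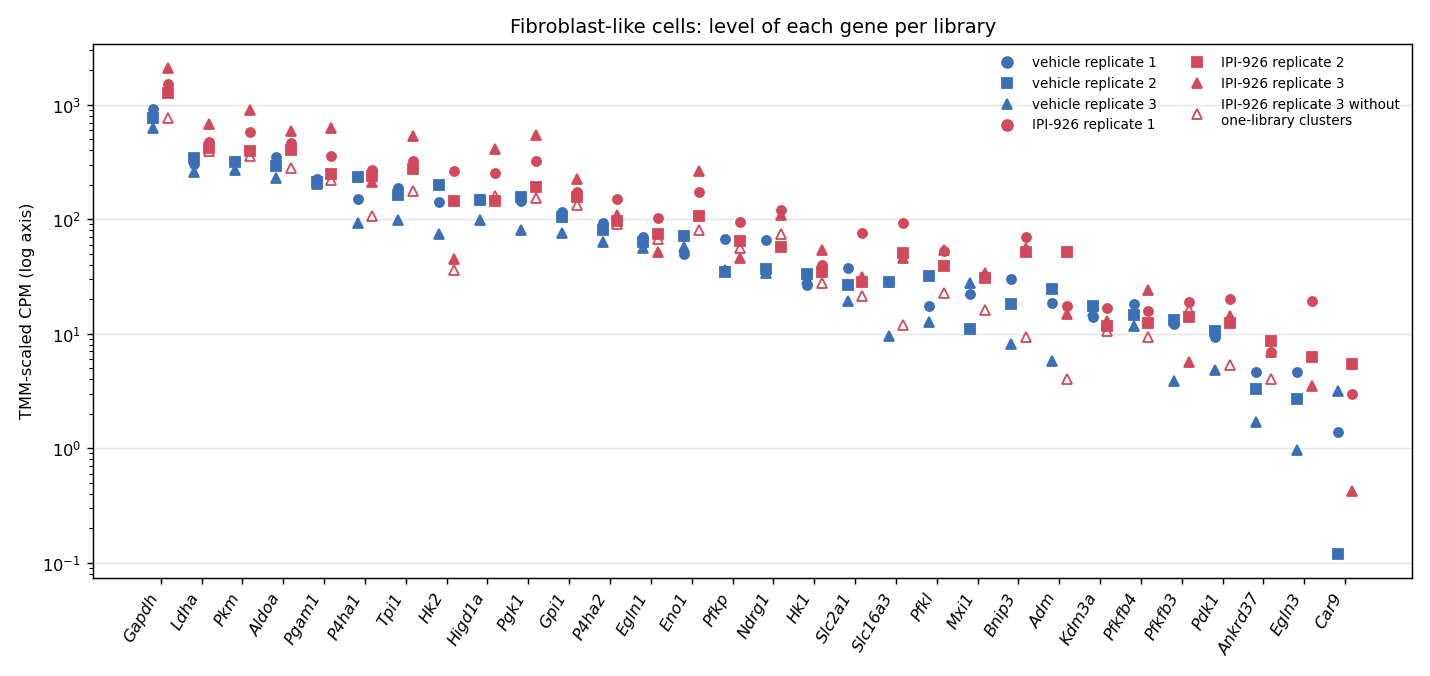
Level of each of the 30 members in fibroblasts, as TMM-scaled CPM on a log axis, with a symbol for each of 3 vehicle and 3 IPI-926 libraries and an open triangle for IPI-926 replicate 3 without the clusters dominated by 1 library. With all clusters, Eno1, Pgk1, Gapdh, Bnip3 and Slc16a3 have all treated points above all vehicle points, whereas those of Hk2 and Adm overlap.

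Other measured values of the fibroblast libraries are given here beside these differences. Their median UMIs per cell were 11140, 22680 and 10033 in vehicle and 25690, 19372 and 3649 with IPI-926. The cell division list summed to 168, 819 and 173 CPM against 384, 190 and 2074 CPM, the dissociation and heat shock list to 8804, 6114 and 9297 against 6480, 7303 and 4741 CPM, and the acinar markers to 39, 13 and 266 against 1, 8 and 2 CPM. Of these the acinar markers were below in every treated library and the others overlapped, with IPI-926 replicate 3 at the highest cell division sum and the lowest heat shock sum. Perivascular markers were also below, at 692, 682 and 689 CPM against 599, 443 and 254 CPM. Neutrophil markers were at 1699 CPM in IPI-926 replicate 1, against 23.2 to 293 CPM in the other libraries. Of the members given above, that library had the highest Slc2a1, Hk2, Pfkp, Slc16a3, Bnip3, Pdk1, Ndrg1, Egln3 and P4ha1. Acinar markers were below in every treated library in endothelial, ductal, macrophage, neutrophil, dendritic and T/NK cells too. Their part in the member differences was not tested.

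Ductal cells, the epithelial class, had 29 of 30 members on the positive side, against 55.4% of genes, and none past the test (0 of 15187 genes by edgeR, 531 at an unadjusted p under 0.05; 114 by DESeq2, 0 by limma-voom). The median was 0.67 against 0.05 over all genes, and 9 members had treated libraries above all vehicle libraries, against 3.61% of genes, and 0 below, against 4.24%. Pfkfb3 was at 12.7, 10.3 and 9.19 CPM in vehicle and 18.8, 34.3 and 19.5 CPM with IPI-926 (log2 difference 1.18, SE 0.31). Pfkl, the liver-type phosphofructokinase, was at 40.6, 41.9 and 29.4 CPM against 121, 81.9 and 47.3 CPM (1.16), and Tpi1, the triose isomerase, at 234, 294 and 200 against 718, 493 and 323 (1.07). Gapdh was at 1164, 1360 and 1162 CPM against 3014, 2615 and 1378 CPM, and Aldoa at 449, 527 and 424 against 561, 662 and 578. In all 5 genes the groups did not overlap, but IPI-926 replicate 3 lay close to the vehicle range for Gapdh, Tpi1 and Pfkl, as did IPI-926 replicate 1 for Aldoa. Pkm overlapped, at 401, 476 and 406 CPM against 1034, 713 and 225. Egln3 and Car9, which are higher in ductal cells than in most classes, also overlapped, Egln3 at 23.6, 25.4 and 10.9 CPM against 13.6, 79.3 and 63.4, and Car9 at 84.1, 21.3 and 59.0 against 51.5, 59.3 and 122. Without the clusters dominated by 1 library 1 member had groups apart, against 3.44% of genes. The smallest library then held 53 ductal cells, against 673 with all clusters. Without IPI-926 replicate 3 the number of members with groups apart was 20, beside 1781 of the 15924 genes tested. In IPI-926 replicate 3 the ductal sums also held fibroblast markers at 855 CPM against 48.3 to 126 CPM in the other libraries, and macrophage markers at 327 against 34.1 to 74.0 CPM, and the part of these was not tested.

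In neutrophils all 27 members that passed the filter on low counts were on the positive side, against 48.7% of genes, and none passed the test (0 of 8463 genes by edgeR, 401 at an unadjusted p under 0.05, 6 by DESeq2, 0 by limma-voom). Their median was 0.56 against -0.02 over all genes, and 2 members had groups that did not overlap, with the treated libraries above, against 5.05% of genes, and 0 below, against 7.27%. Pfkfb3 was at 67.5, 58.1 and 22.4 CPM in vehicle and 213, 82.2 and 80.6 CPM with IPI-926 (log2 difference 1.40, SE 0.50). Slc16a3 was at 244, 186 and 213 CPM against 415, 307 and 295 CPM (0.67, SE 0.30). Pfkl overlapped, at 52.2, 21.0 and 18.6 CPM against 100, 56.7 and 43.0, as did Gapdh, at 1485, 810 and 970 against 1845, 1430 and 1353, with Aldoa and Pkm. Without the cluster of highest member share the 27 members were still positive, at a median of 0.38. The dissociation and heat shock list had 15 of 16 genes positive in these cells, with a median of 0.69 and summed levels of 9881 to 12879 CPM in vehicle and 13104 to 19618 CPM with IPI-926, and its part was not tested.

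Endothelial cells showed small differences. Of 28 members tested 20 were positive, against 49% of genes, with a median of 0.20, 6 had treated libraries above all vehicle ones, against 4.76% of genes, and 1 below, against 5.65%. The edgeR test called 0 of 10359 genes, with 417 at an unadjusted p under 0.05, DESeq2 called 16 and limma-voom 0. Pkm was at 465, 469 and 350 CPM in vehicle against 615, 517 and 590 CPM (log2 difference 0.42, SE 0.18). Eno1 was at 75.3, 77.5 and 86.4 CPM against 117, 93.1 and 101 CPM (0.38, SE 0.16). The groups of both genes did not overlap. Mxi1 was the member below, at 19.8, 21.1 and 28.6 CPM against 19.5, 13.1 and 17.7 CPM. The summed ductal markers in endothelial cells were at 228 to 560 CPM in vehicle and 111 to 168 CPM with IPI-926, and their part was not tested.

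In macrophages 17 of 30 members were positive, against 52.2% of genes, the median was 0.01, and 0 had groups apart in either direction, against 3.06% of genes above and 2.53% below. That count rested on single libraries and clusters. It was 27 of 30 (median 0.30) without IPI-926 replicate 3, 25 of 30 (0.28) without vehicle replicate 1 and 8 of 30 (-0.25) without IPI-926 replicate 2. Without the clusters dominated by 1 library, which included clusters of 2568 and 1667 macrophages with 98.1% and 98.9% of cells from IPI-926 replicate 3, it was 26 of 30 (0.14 against -0.02 over all genes). The smallest library then held 40 macrophages, against 687 with all clusters. Gapdh was at 2770, 1231 and 1636 CPM in vehicle and 2291, 2679 and 1532 CPM with IPI-926, and Ldha at 716, 462 and 549 against 530, 755 and 330. Ndrg1 was at 33.7, 28.6 and 17.9 CPM against 75.0, 21.3 and 29.2, high in IPI-926 replicate 1 alone. In perivascular cells 16 of 22 members lay on the positive side (49.6% of genes; median 0.18), with 0 above or below against 4.15% and 3.9% of genes (1 gene, 0.0155%, was called), and P4ha1 was at 121, 147 and 101 CPM against 105, 104 and 52.2.

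Among lymphoid and dendritic cells the members were mostly on the positive side by small amounts. Dendritic cells had 19 of 26 positive (51.1% of genes; median 0.23), with 4 above against 3.76% of genes and 0 below against 3.72%, among them Gapdh, at 1059, 897 and 684 CPM against 1317, 1543 and 1074, and Pgam1, at 168, 180 and 122 against 231, 229 and 223. The dendritic sums of IPI-926 replicate 1 held plasma markers at 17908 CPM, against 20.7 to 138 CPM in the other libraries, while the dendritic markers were below in every treated library, at 2092, 2006 and 2114 against 1198, 1715 and 1604 CPM. The part of these was not tested. T/NK cells had 19 of 25 positive (53.7% of genes; median 0.15), with 1 above against 3.45% and 0 below against 2.75%, and Pdk1 was at 30.4, 17.3 and 25.7 CPM against 75.0, 19.8 and 16.6. The member above was Hk1, whose groups were 41.5 and 41.7 CPM at their nearest and overlapped with RLE scaling, with library totals, with no filter, when doublets were left in, under stricter filtering of cells and without the clusters dominated by 1 library. B cells had 10 members tested, all positive (50.9% of genes; median 0.37), with 2 above against 2.99% and 0 below against 3.07%. These were Gpi1, at 142, 130 and 168.67 CPM against 273, 209 and 168.79, where the groups nearly touch, and Higd1a, at 65.8, 68.4 and 77.8 against 86.2, 97.2 and 125. No member passed in macrophages, perivascular, dendritic, T/NK or B cells. In these edgeR called 0, 1, 0, 1 and 2 genes (0.014% in T/NK and 0.073% in B cells), DESeq2 called 2, 13, 4, 3 and 5 and limma-voom called 0, 0, 0, 1 and 1, with 249, 156, 179, 129 and 60 genes at an unadjusted edgeR p under 0.05.

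Genes of the same pathways outside the 30 did not all share the pattern. Of 25 other hypoxia targets tested in fibroblasts 19 were positive at a median of 0.30, and of 24 in mesothelial cells 19 were positive at 0.63, with no gene past the test in either class. Ndufa4l2, a mitochondrial subunit induced by HIF, was at 79.7, 28.8 and 50.1 CPM in vehicle fibroblasts and 161, 155 and 184 CPM with IPI-926. Mif, a cytokine and hypoxia target, was at 342, 402 and 231 CPM against 691, 535 and 1088. With all clusters both had groups that did not overlap, and IPI-926 replicate 3 was highest for each. Treated libraries lay above all vehicle libraries for 4.35% of all genes in fibroblasts. Both genes were named for their small p in that class. The fibroblast values of these other lists, here and below, are with all clusters only. Vegfa, the vascular growth factor, had log2 differences of 0.39 in fibroblasts and 1.10 in mesothelial cells.

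The other glycolysis genes had 9 of 19 positive in fibroblasts (median -0.03) and 8 of 17 in mesothelial cells (median -0.10). Of these, Ldhb, the lactate dehydrogenase form that favours the return of lactate to pyruvate, was at 217, 116 and 210 CPM in vehicle mesothelial cells and 123 and 62.1 CPM with IPI-926 (log2 difference -1.0), and at -0.05 in fibroblasts. Slc2a3, another glucose transporter, was at -0.37 in fibroblasts. The HIF components themselves had 9 of 15 positive in fibroblasts at a median of 0.05, with Hif1a at 0.25 there and 0.79 in mesothelial cells and Epas1 at -0.93 in fibroblasts. No gene of these lists passed the test in any class.

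Whether the fibroblast response differed from that of another class was tested gene by gene on the difference of the 2 responses within libraries. No gene was called against any of the 9 other classes by limma on those differences, with 87 to 766 genes at an unadjusted p under 0.05, and edgeR with the library as a term called 1 gene, no member, against T/NK cells and 0 against the others. The median member difference was 0.89 against macrophages, 0.70 against endothelial cells and -0.17 against mesothelial cells. Without the clusters dominated by 1 library these were 0.39, 0.32 and -0.61, with no member called.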

How the data were processed

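Single-cell 3′ libraries of 6 tumours, 1 per mouse, were given as filtered matrices whose deposited values are raw counts of UMIs by gene and barcode. The matrices were made with cellranger 6.1.2 per the file headers, whereas Cell Ranger 2.1.1 with mm10 is listed per the submitters' processing notes; the annotation is not given in the sources used here. Reads shared between near-identical copies can be left uncounted or be given to a copy, so Aldoa, Eno1 and Gapdh, which have copies, are uncertain to that extent. In the kept cells Eno1b had 4022 UMIs beside 113365 for Eno1, and Aldoart1 had 19 beside 325648 for Aldoa. How many reads were left uncounted is not known here.

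Cells needed 500 UMIs, 300 genes and no more than 20% of mitochondrial UMIs, and predicted doublets (0.8% per 1000 barcodes, from simulated pairs among 20 neighbours) were removed. Cells were clustered with leidenalg 0.10.2 (resolution 1, 30 components, 2000 variable genes) without the members and the related pathway genes. A cluster was named when at least 3 markers of a class were detected (50 CPM, 25% of cells, 2-fold); a rule that leaves granulocyte precursors unnamed was added after seeing the data. Counts were summed per class and library with at least 20 cells and tested with edgeR 4.0.16 (R 4.3.3; filterByExpr, TMM scaling, quasi-likelihood F test, IPI-926 against vehicle), Benjamini-Hochberg adjusted over all genes tested, at a threshold of 0.05. DESeq2 1.42.0 and voom of limma 3.58.1 were alternatives, and limma tested differences between classes. Tests were checked on simulated counts. Clusters with over 90% of cells from 1 library were also left out as an alternative. Alternatives added after seeing the data were at least 10 cells per library, neutrophils without the cluster of highest member share, and differences between classes without one-library clusters.

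The members and lists were chosen with earlier results of these data known. Values are given for 16 members in fibroblasts, and in other classes for members that pass, the 3 of smallest p and the 3 of highest level; mesothelial members and ductal Car9 and Egln3 beyond that rule, and the clusters and their genes, were chosen after their values were seen. Of the pathway lists, those that pass, the 2 of smallest p in fibroblasts and 6 fixed genes are named. Mesothelial counts in IPI-926 replicate 1 (12 cells) were left out of the main test. No pair of libraries agreed within sampling noise (lowest chi-square per degree of freedom 301.8), and replicate numbers only name the mice. Positions of genes are from GENCODE vM21 (GRCm38), which holds 32235 of the 32285 gene IDs; promoter windows are from RefSeq.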

Additional observations from a re-analysis of the deposited data

Results flagged for a closer look

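Hk1, the constitutive hexokinase, differed in direction between classes. Its log2 difference (IPI-926 minus vehicle) was 0.52 in fibroblasts and 0.30 in T/NK cells, with every treated library above every vehicle library, and -0.40 in mesothelial cells, with both treated libraries below all vehicle libraries. Mxi1, the Myc antagonist, had every treated library above in fibroblasts, at 0.68, and below in mesothelial cells, at -0.79, and in endothelial cells, at -0.46. Several of these groups overlapped under other settings. Hk1 overlapped in T/NK cells with RLE scaling, library totals, no filter, the stricter cell filter, doublets kept, without one-library clusters and without vehicle replicate 1, vehicle replicate 3 or IPI-926 replicate 2. In fibroblasts Hk1 overlapped with no filter and both genes with the stricter cell filter and without one-library clusters, and Mxi1 with equal cells per library and doublets kept. In mesothelial cells both overlapped with the lower cell minimum and with equal cells per library, and Hk1 with no filter and without vehicle replicate 3 or IPI-926 replicate 2. In endothelial cells Mxi1 overlapped with doublets kept. The difference of response between fibroblasts and mesothelial cells was tested within libraries by limma over 10348 genes. It was 0.92 for Hk1 (SE 0.34, adjusted p = 0.653) and 1.5 for Mxi1 (SE 0.45, adjusted p = 0.598), and no gene was called. Against endothelial cells the difference for Mxi1 was 1.2 (SE 0.35, adjusted p = 0.994 by limma). Hk1 in T/NK cells was not tested against mesothelial cells.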

How the results depend on the processing

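No paired analysis was possible because the replicate numbers were given in accession order and pair no mice. Of the named log2 differences, those that changed sign lay near 0 or had a wide error. When each library was left out in turn, Hk2 in fibroblasts ranged from -0.57 to 0.57, Adm in fibroblasts from -0.017 to 1.18, Aldoa and Ldha in perivascular cells from -0.020 to 0.31 and from -0.18 to 0.15, and Pdk1 in T/NK cells from -0.36 to 1.18. In macrophages Ndrg1 ranged from -0.082 to 0.94, Gapdh from -0.023 to 0.60, Aldoa from -0.40 to 0.32 and Ldha from -0.44 to 0.16. With voom Hk2 in fibroblasts was -0.12 and Aldoa in macrophages -0.052. An equal number of cells from each library gave -0.079 for Adm in fibroblasts and -0.015 for Pkm in B cells. Ldha was -0.027 in perivascular cells with the stricter filter and 0.040 in macrophages without one-library clusters, and Aldoa in macrophages was -0.060 with library totals and -6.3e-05 with doublets kept.

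The number of members called in mesothelial cells, 1, was 10 with no filter on low counts, 9 with DESeq2, 2 with voom, 0 with the stricter cell filter or clustering with the members, and 0 to 2 when 1 library was left out. Genes called there, 4 of 10797, came to 217 of 18719, 174 of 10734, 30 of 10797, 1 of 10708 and 2 of 10831 under the same settings. They came to 12 with at least 10 cells, 7 with equal cells, 10 with doublets kept and 0 to 87 without 1 vehicle library. With no filter 26 genes were called in perivascular cells, 5 in endothelial cells, 50 in neutrophils, 17 in dendritic cells, 26 in T/NK cells and 22 in B cells. DESeq2 called 44 in fibroblasts, 13 in perivascular cells, 16 in endothelial cells, 114 in ductal cells, 2 in macrophages, 6 in neutrophils, 4 in dendritic cells, 3 in T/NK cells and 5 in B cells. Voom called 0 in perivascular and 1 in B cells. Equal cells gave 1 in endothelial cells, 1 in neutrophils and 2 in T/NK cells, the stricter filter 2 in perivascular cells, 1 in neutrophils and 1 in B cells, doublets kept 0 in perivascular and 1 in B cells, clustering with the members 2 in perivascular cells and 1 in neutrophils, and at least 50 cells 1 in B cells. In neutrophils library totals and omission of the highest cluster each gave 1, and macrophages without one-library clusters gave 1. Without 1 library the calls ran from 1 to 4 in perivascular, 0 to 7 in endothelial, 0 to 2 in neutrophil, 0 to 1 in dendritic, 0 to 3 in T/NK and 1 to 7 in B cells.

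The difference in summed member share was 0.283 percentage points in fibroblasts and 0.139 without one-library clusters. Outside mitochondrial and ribosomal genes it was 0.105 in endothelial and 0.0538 in B cells. The difference of response to T/NK cells gave 1 call with edgeR. Low counts limit Egln3 and Car9 in fibroblasts and most members in B cells, where differences were not detectable at this depth, and mesothelial results rest on 2 treated mice, so that leaving out either leaves 1 whose spread is taken from the other group.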

Other observations

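In neutrophils the genes of oxidative phosphorylation and the members lay on opposite sides, and the contrast between them was not tested. All 27 members tested were positive, at a median of 0.56, with none past the test. With library totals 26 were positive at a median of 0.33, where the median over all genes was -0.27. All 24 subunits of the respiratory chain and ATP synthase that were tested had negative log2 differences with IPI-926 (median -0.46 against -0.02 over all genes), and 10 had every treated library below every vehicle library, against 7.27% of all genes, with none past the edgeR test. The enzymes of the TCA cycle had 18 of 20 negative, at a median of -0.30. In mesothelial cells 23 of 24 respiratory genes were positive, at a median of 0.24, and in fibroblasts 15 of 24, at 0.17.

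Across cell classes, the share of UMIs from the 15 glycolysis members went with that from the 15 hypoxia members. Over 64 sums of a class in a library, Pearson's r was 0.80 and Spearman's rho 0.78, and over 12 class means they were 0.84 and 0.85. The points share libraries and, within each, the depth and free RNA of the sample, and the values are given as a description. Unnamed clusters spanned 0.209% to 0.751% in member share.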
